A study of Homo sapiens with 11 samples.

Results

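H3K4me3, trimethylation of lysine 4 of histone H3, was mapped by ChIP-seq in HK2 cells, an immortalised human cell line labelled as proximal tubular epithelial cells of the kidney. Of the 11 samples of the series, 2 carried this mark and were taken as replicates 1 and 2 of the same culture condition, a medium with 10% serum and 0.05% DMSO that all groups shared. The peak lists held 29130 and 73942 peaks. Each peak had a position on hg19 and no height or score, so the reads behind a peak cannot be given and only position and width can be described. In the labels 1 of the replicates has no number, and nothing says whether the replicates came from separate cultures. H3K27ac, which marks active promoters and enhancers, H3K27me3, which marks repressed chromatin, and RNA-seq, each with 2 samples of the same cells, served as context.

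H3K4me3 is written at active promoters by the SET1 and MLL (KMT2) methyltransferase complexes, erased by KDM5 demethylases, and read by PHD finger proteins such as TAF3 of the general transcription machinery. CXXC1, a subunit of the SET1 complexes, binds unmethylated CpG dinucleotides, and CpG islands commonly carry the mark even where the gene is silent. At silent developmental genes it can lie together with H3K27me3, a state called bivalent.

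The letters before the transcription start site (TSS) of 3 genes show the range of promoters met below: IRS2, with one of the widest regions of the mark, the long noncoding RNA gene NORAD, and the CpG-poor promoter of AMPD3 that carried the mark. Each line gives the 200 bases upstream of the canonical TSS, 5′ to 3′ on the strand of the gene, from GRCh37 at chr13:110438931-110439130, chr20:34638941-34639140 and chr11:10476611-10476810, with CpG dinucleotides in capitals. IRS2 and NORAD lie on the minus strand and AMPD3 on the plus strand.
IRS2: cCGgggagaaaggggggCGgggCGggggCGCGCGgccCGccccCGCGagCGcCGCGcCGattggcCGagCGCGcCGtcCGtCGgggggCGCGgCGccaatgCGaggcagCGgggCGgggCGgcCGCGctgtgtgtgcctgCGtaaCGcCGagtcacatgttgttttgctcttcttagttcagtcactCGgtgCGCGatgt
NORAD: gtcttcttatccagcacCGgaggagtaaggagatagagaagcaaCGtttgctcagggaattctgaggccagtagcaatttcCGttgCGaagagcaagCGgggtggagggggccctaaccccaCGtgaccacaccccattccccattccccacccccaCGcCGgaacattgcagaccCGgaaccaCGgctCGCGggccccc
AMPD3: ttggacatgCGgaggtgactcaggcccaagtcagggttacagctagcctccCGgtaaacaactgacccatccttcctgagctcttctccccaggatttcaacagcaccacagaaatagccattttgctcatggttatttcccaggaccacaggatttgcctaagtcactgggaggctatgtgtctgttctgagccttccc
The windows held 34 CpG dinucleotides at IRS2, 12 at NORAD and 2 at AMPD3. Peaks covered 100% of the IRS2 window in both replicates, 100% and 30.5% of the NORAD window in replicates 1 and 2, and 79.5% and 28.5% of the AMPD3 window. None of the 3 windows overlapped an annotated exon.

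The replicates stood apart, and this touches every result below. On the 24 chromosomes, replicate 1 held 28615 peaks over 42.1 Mb with a median width of 1194 bp, and replicate 2 held 73505 peaks over 48.2 Mb with a median width of 434 bp. Replicate 2 thus had 2.57-fold more peaks on 1.14-fold more sequence. Of the peaks of replicate 1, 16857 overlapped a peak of replicate 2 by at least 1 bp, which was 58.9% (95% Wilson interval, 58.3 to 59.5%, counting error only). Of the peaks of replicate 2, 18025 overlapped a peak of replicate 1, which was 24.5% (24.2 to 24.8%). Overlapping peaks were wide, with medians of 1990 and 1240 bp, and the others narrow, with medians of 394 and 380 bp. The peaks that did not overlap differed between the replicates in a further way. An H3K27ac peak of the list without a number in its label, taken as replicate 1, lay on 73.5% of those found in H3K4me3 replicate 1 alone. It lay on 1.94% of those found in H3K4me3 replicate 2 alone. For overlapping peaks the share was 82.8% and 82.7%. With the H3K27ac list of replicate 2 the shares were 54.0% and 0.59%. Values are therefore given for each replicate and for the overlapping peaks, and what set the replicates apart was not tested. The supplement of the study lists fewer aligned read pairs for replicate 2, the longer list, than for replicate 1. It also lists a lower fraction of mapped reads inside peaks for replicate 2, both for H3K4me3 and for H3K27ac. The part of depth and of this fraction in these differences was not tested.

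Peak width separated the peaks that both replicates held from those that 1 held. In replicate 1, the share overlapping the other replicate rose from 8.7% of 4683 peaks under 300 bp to 35.9% of 4826 peaks from 500 to under 1000 bp and 97.8% of 989 peaks of 4 kb or more. In replicate 2 the same classes held 13531, 17073 and 94 peaks, of which 3.2%, 25.7% and 95.7% overlapped. Replicate 2 had 43578 peaks under 500 bp, 59.3% of its list, and 7394 of them had the smallest width of that list, 273 bp. Replicate 1 had 8588 peaks of at least 2 kb (30.01%) and replicate 2 had 2759 (3.75%). Where 1 peak of each replicate overlapped exactly 1 peak of the other, in 15564 pairs, the peak of replicate 1 was wider in 84.4%, with a median ratio of 1.45 (quartiles, 1.13 and 1.91). Across these pairs the log widths correlated with a Pearson r of 0.671, a description across peaks of the same 2 lists.

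**Figure D1:**
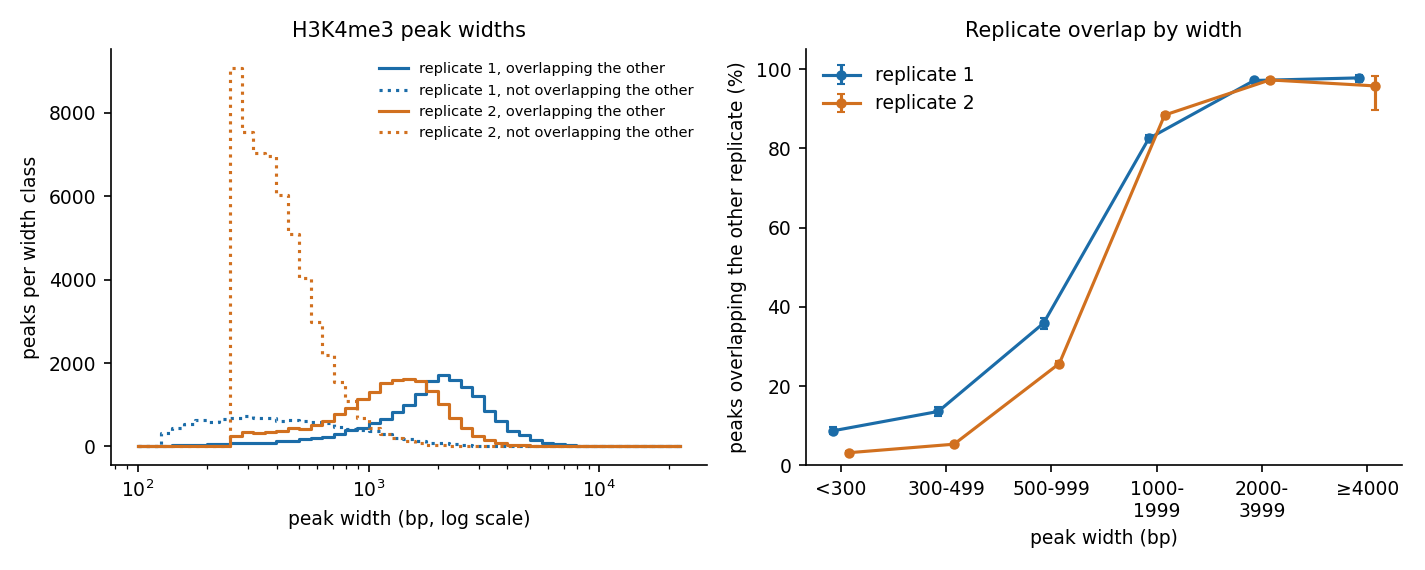
Left, number of H3K4me3 peaks by width (bp, log scale) in each replicate, split by overlap with the other replicate. Right, share of peaks overlapping the other replicate by width class, with 95% Wilson intervals. Narrow peaks of replicate 2 form the tall dotted curve, and the share climbs from below 10% under 300 bp to over 95% from 2 kb up in both replicates.

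A TSS of any annotated gene lay within 1 kb of 17178 peaks of replicate 1 (60.03%, 59.5 to 60.6%) and of 25321 peaks of replicate 2 (34.4%, 34.1 to 34.8%), against 7.503% of genome bases within that distance. The mean was 47.2% ± 18.1 (SD, n = 2). Among overlapping peaks the shares were close, 87.3% and 86.5%, and among the others 20.9% and 17.5%. A TSS lay inside 15097 peaks of replicate 1 (52.8%) and 17457 peaks of replicate 2 (23.7%), and 92.9% and 81.5% of these overlapped the other replicate. Peaks at 5 to 50 kb from the nearest TSS made up 24.0% of replicate 1 and 38.9% of replicate 2, of which 17.2% and 4.3% overlapped. Peaks with a TSS inside had median widths of 2102 and 1237 bp, and peaks with no TSS within 1 kb 428 and 380.5 bp. The share of peaks with a TSS within 1 kb was 38.9% ± 5.66 for H3K27ac (SD, n = 2) and 15.4% ± 0.864 for H3K27me3. In the two-sided exact permutation test over samples, H3K4me3 differed from H3K27ac with p = 1 and from H3K27me3 with p = 0.333, which is the smallest p that 2 samples against 2 allow.

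The mark lay over the start and reached further downstream than upstream. Around the canonical TSS of 20162 protein-coding genes, the share of genes with a peak over the position was greatest 150 bp downstream, at 65.9% in replicate 1 and 67.7% in replicate 2. At 1 kb upstream it was 28.7% and 14.2%, and at 1 kb downstream 52.4% and 27.1%. It stayed above 50% of its maximum from 900 bp upstream to 1350 bp downstream in replicate 1 and from 550 bp upstream to 850 bp downstream in replicate 2. Of the covered bases within 2 kb, 58.2% and 59.6% lay downstream, a mean of 58.9% ± 0.992 (SD, n = 2). For the 9955 genes with no TSS of another gene within 5 kb, the shares were 63.3% and 64.9%. The place of the maximum and the downstream share therefore differed little between the replicates, while the extent around the start was greater in replicate 1.

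**Figure D2:**
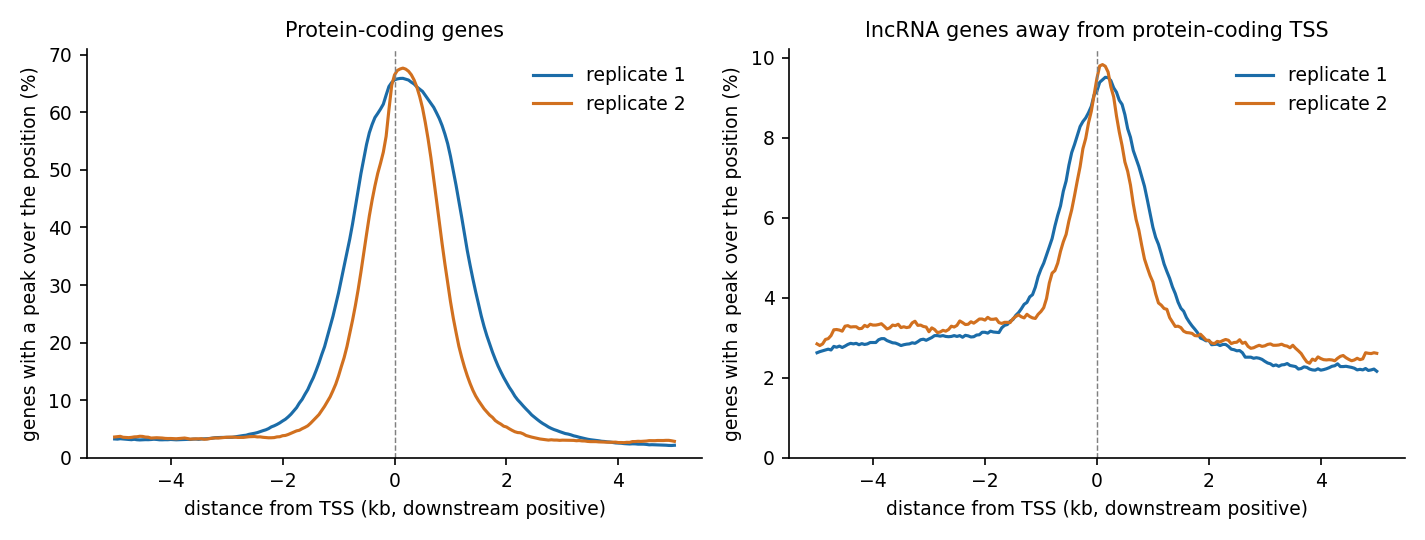
Share of genes with an H3K4me3 peak over each position (percent, every 50 bp) against distance from the canonical TSS (kb, downstream positive), for protein-coding genes and for lncRNA genes with no protein-coding TSS within 1 kb, in each replicate. Both replicates rise to 65.9% and 67.7% just downstream of protein-coding starts, replicate 1 spreads wider, and the lncRNA curves stay below 10%.

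In peaks that held a protein-coding TSS, the median reach was 864 bp upstream and 1339.5 bp downstream in replicate 1 (13232 genes), and 524 and 862 bp in replicate 2 (13406 genes). The downstream side was the longer in 84.9% and 82.9% of genes with no opposite-strand TSS within 1 kb upstream, and in 57.4% and 57.1% of the 4431 and 4401 genes that had one. For genes with such a divergent neighbour, the upstream reach was 1274 bp in replicate 1 and 757 bp in replicate 2. Where neighbours on opposite strands started close together, the peaks were thus nearly symmetrical. The peak ended past the first exon in nearly all multi-exon genes whose first exon was under 100 bp, 99.9% and 99.2%. Where the first exon had 1 kb or more, the share was 62.8% of 339 genes and 51.9% of 343, and the median downstream reach was 1925 and 1360 bp.

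Protein-coding genes carried the mark most often among the biotypes. Peaks of both replicates lay within 1 kb of a TSS in 14029 of 20162 protein-coding genes, which was 69.6% (68.9 to 70.2%), with 71.2% in replicate 1 and 77.3% in replicate 2. Of 18702 lncRNA genes, 24.5% (23.9 to 25.2%) had peaks of both, with 27.7% and 33.4% in replicates 1 and 2. Over all 64439 annotated genes the share was 30.8%, with 32.8% and 39.2%. Many lncRNA genes start beside a protein-coding gene, and for the 14468 that had no protein-coding TSS within 1 kb the share was 10.6%, with 14.3% and 20.2%. The width of the region around marked starts, with peaks of a replicate within 1 kb joined, had medians of 2383 and 1608 bp at protein-coding genes and 1902 and 1320 bp at these lncRNA genes.

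Pseudogenes split by whether they are annotated as transcribed. Processed pseudogenes, copies of mRNAs inserted in the genome, had peaks of both replicates in 1.72% of 10087 genes, unprocessed ones in 3.85% of 2522, transcribed processed ones in 17.1% of 498, transcribed unprocessed ones in 17.9% of 915 and transcribed unitary ones in 29.4% of 153 (22.8 to 37.1%). With no protein-coding TSS within 1 kb the shares fell to 7.93% for transcribed processed, 16.7% for transcribed unprocessed and 16.5% for transcribed unitary pseudogenes, beside 1.35% for processed and 3.43% for unprocessed ones. Reads of processed pseudogenes and their parent genes can be hard to tell apart. The excess of replicate 2 over replicate 1 differed between biotypes, with 11.1% against 2.68% of processed pseudogenes and 49.02% against 32.03% of transcribed unitary ones, but 8.30% against 8.50% of snoRNA genes. Genes of small RNAs were rarely marked at their own annotated end. Peaks of both replicates lay within 1 kb of 8.18% of 3043 miRNA hairpins, 5.56% of 1458 snoRNA genes, 3.03% of 1914 snRNA genes and 2.36% of 2030 miscellaneous RNA genes, and with no protein-coding TSS within 1 kb the shares for miRNA and snoRNA genes were 3.33% and 1.66%. None of the 143 immunoglobulin V genes had peaks of both replicates, which allows a share of up to 2.62% (Wilson), and 8.39% had a peak in replicate 2.

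**Figure D3:**
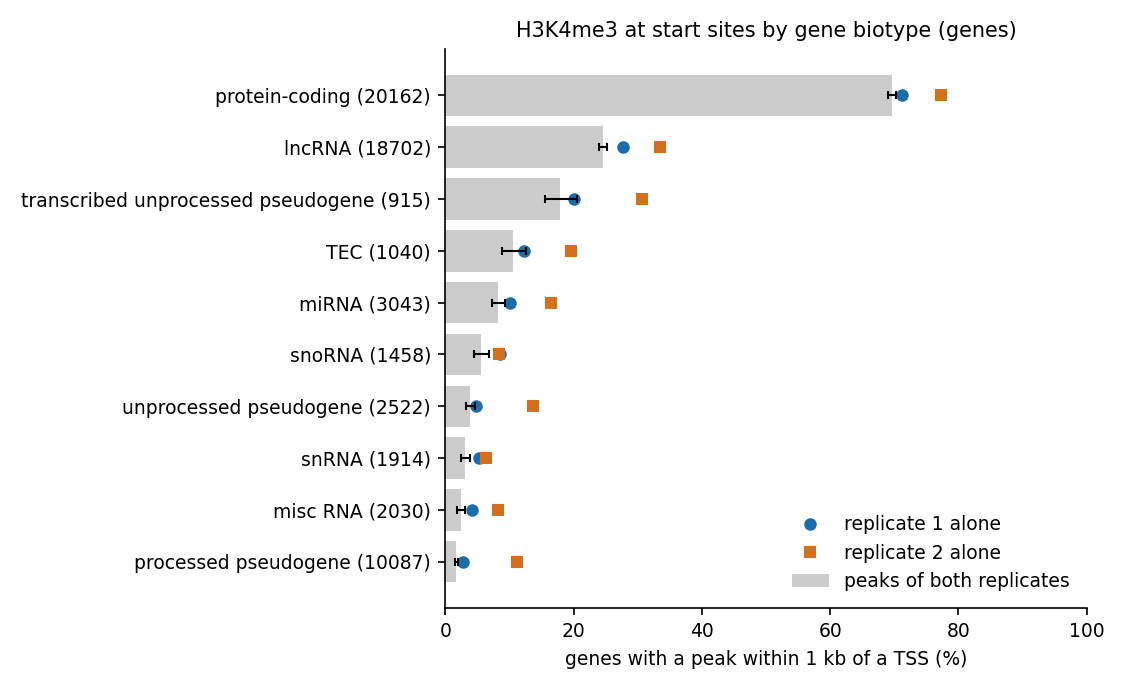
Share of genes with an H3K4me3 peak within 1 kb of a TSS (percent) for biotypes of at least 500 genes, with the number of genes in brackets. Bars give peaks of both replicates with 95% Wilson intervals and points give each replicate alone. Protein-coding genes stand at 69.6%, lncRNA genes at 24.5% and processed pseudogenes at 1.72%, and replicate 2 lies above replicate 1 in all classes shown except snoRNA genes.

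Most protein-coding genes with several separate starts carried the mark at 1 of them. TSS over 2 kb apart were taken as separate groups, and 12505 of 20162 protein-coding genes (62.0%) had at least 2. Of these, 8625 had peaks of both replicates at 1 group, 1314 (10.5%) at 2 or more and 2566 at none. The most upstream group carried peaks of both replicates in 70.6% of genes and later groups in 7.23%. In 6418 genes 1 group had peaks of both replicates and no other group had a peak in either, and in 9.41% of them (604 genes) the marked group was not the most upstream. Among the 5434 of these with a summed FPKM of at least 1, transcripts of the marked group held a median of 93.2% of the FPKM of the gene, and under 10% in 30 genes. FPKM of transcripts is an estimate that splits shared reads. The marked group can also hold most annotated transcripts, with 22 against 1 in the other group at EEF1A1, 25 against 2 at RPLP0 and 2 against 1 at RPL39. The FPKM share was not set against that of annotated transcripts.

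The 5 such genes of highest FPKM were ribosomal, translational or matrix genes. EEF1A1, an elongation factor of translation, had all of its FPKM in transcripts of the marked group in both libraries. RPS24, RPLP0 and RPL39, ribosomal proteins, had 99.0%, 97.9% and 98.1%. FN1, fibronectin of the extracellular matrix, was the exception, with 9 start groups of which the most upstream was marked (6200 bp in replicate 1 and 1702 bp in replicate 2) and held 61.3% of an FPKM of 2338 ± 7.35 (SD, n = 2 libraries). Another of its groups, near chr2:216257870-216258444, had no H3K4me3 peak in either replicate and held 26.9% of the FPKM.

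CpG content and transcription both moved with the mark. Promoters were classed by the ratio of observed to expected CpG in 1000 bp around the canonical TSS, as CpG-poor under 0.45 and CpG-rich from 0.75. A promoter counted as marked where a peak lay within 1 kb of any TSS of its gene. The peak need not lie at the classed TSS. By this count, peaks of both replicates marked 16.8% of 5414 CpG-poor promoters (15.8 to 17.8%), 80.4% of 5748 intermediate ones and 94.6% of 8976 CpG-rich ones. In replicates 1 and 2 alone, CpG-poor promoters had peaks in 21.9% and 30.9%. Where FPKM was at least 1 in both libraries, 66.1% of 729 CpG-poor promoters had peaks of both replicates and 99.7% of 7217 CpG-rich ones. The replicates parted most at silent CpG-rich promoters. Of 423 CpG-rich promoters listed at an FPKM of 0 in both libraries, 31.9% had a peak in replicate 1 and 77.1% in replicate 2, and of the 131 with peaks of both replicates, 67.9% also had H3K27me3 peaks in both replicates of that mark.

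Genes with peaks of both replicates had a mean log10(FPKM + 1) of 0.943 (13803 genes with RNA-seq values) and genes with a peak in neither 0.0364 (4006 genes). The difference was 0.904 in RNA-seq library 1 and 0.907 in library 2, a description across genes, which are not replicates. Genes marked in 1 replicate were unlike each other, with a median FPKM of 0.609 and a share of 41.4% at an FPKM of at least 1 for the 319 genes marked in replicate 1 alone, and a median of 0 and 5.999% for the 1517 genes marked in replicate 2 alone. From an FPKM of 0 to 100 or more, the share with peaks of both replicates rose from 9.41% through 64.3% at 0.1 to 1 and 94.7% at 1 to 10 to 99.4%. The median width of the region rose over the same classes from 1055.5 to 3247 bp in replicate 1 and from 1207 to 2076 bp in replicate 2.

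**Figure D4:**
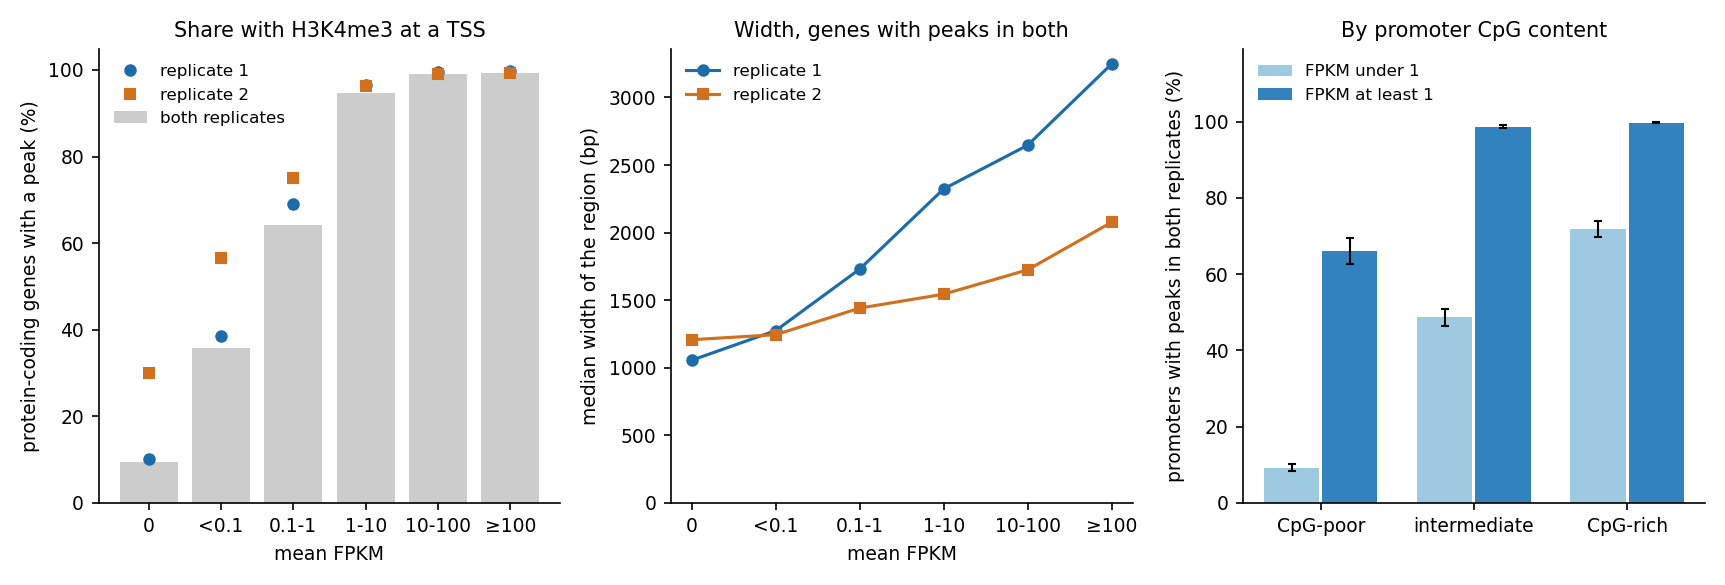
Left, share of protein-coding genes with a peak within 1 kb of a TSS (percent) by mean FPKM, as bars for peaks of both replicates and points for each replicate. Middle, median width of the H3K4me3 region (bp) in genes with peaks of both. Right, share of promoters with peaks of both replicates within 1 kb of any TSS of the gene, by CpG class at the canonical TSS and FPKM. Intervals there are 95% Wilson intervals. Share and width rise with FPKM, and CpG-poor promoters reach 66.1% where FPKM is at least 1.

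Letters known from core promoters were unevenly spread. In the 300 bases from 250 before to 50 after the canonical TSS of 20140 protein-coding genes, read on both strands, the GC box GGGCGG was found in 61.0% of promoters, the CCAAT box CCAAT in 35.9%, the TATA box TATAAA in 9.81% and the E box CACGTG in 8.75%. Peaks were again counted within 1 kb of any TSS of the gene, not only at the canonical TSS. Promoters with TATAAA had peaks of both replicates in 35.9% and those without in 73.3%, while for GGGCGG the shares were 86.5% and 43.2%. With and without CCAAT the shares were 69.1% and 69.9%. Among marked promoters, median widths with and without TATAAA were 2554 and 2376 bp in replicate 1 and 1653 and 1606.5 bp in replicate 2. A match is a description of letters, and GGGCGG contains a CpG, so it is not independent of the CpG class. No motif share was computed within a CpG or FPKM class. The contrast for TATAAA therefore cannot be set apart from these classes either.

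Peaks with no TSS within 1 kb numbered 11437 in replicate 1 and 48184 in replicate 2. By midpoint, 5.06% and 8.22% lay in exons, 51.5% and 51.0% in introns and 43.4% and 40.8% outside genes, against 3.63%, 56.5% and 39.9% of the genome bases that far from a TSS. Taken over all peaks, their place among introns and outside genes was near that of the genome. Those that overlapped the other replicate were placed otherwise, with 57.0% of 2136 and 53.3% of 2426 outside genes and 9.08% and 9.60% in exons. Base composition also differed. Peaks away from a TSS that did not overlap had a median GC content of 45.1% in replicate 1 and 56.2% in replicate 2, those that overlapped 59.3% and 61.1%, and the genome 40.9%. H3K27ac peaks of that mark's replicate 1 lay on 72.1% of the former in replicate 1 and 1.75% in replicate 2.

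Joined regions with no TSS within 5 kb in either replicate, found in both, numbered 1259, with median widths of 1028 and 766 bp, a median GC content of 58.2%, and 441 (35.03%) inside genes. H3K27ac peaks of both replicates lay on 408 of them (32.4%), H3K27me3 peaks of both on 135 (10.7%), and no H3K27ac peak of either on 496 (39.4%). The widest by the narrower replicate lay in an intron of BCOR, a transcriptional corepressor gene, at chrX:39963747-39969666, with 5920 and 5438 bp, 66.5% GC and H3K27ac over 97.5% and 82.1% of its length. The third, at chr1:161416625-161420371 in an lncRNA gene without a symbol (ENSG00000283360), had 3747 and 11747 bp and 70.9% GC. The other 3 lay at the edge of the longest run of undetermined bases of their chromosome, at distances of 1.4, 0.7 and 0.1 kb, at chr17:22257022-22261648, chr6:58776299-58779504 and chr19:27731900-27734658. They had 40.9%, 39.8% and 38.5% GC, and peaks of H3K27ac and H3K27me3 replicate 2 lay on all 3. What gives peaks of 3 marks at these sites was not tested.

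The 10 genes of widest region at a TSS, ranked by the narrower replicate, had at least 6932 bp in both replicates and differed in known function. DLX2, a homeobox gene, came first with 9664 bp in replicate 1 and 9113 bp in replicate 2, which reached beyond its gene body at chr2:172964166-172967628, at a low FPKM of 0.94 ± 0.01 (SD, n = 2). PAX6, a paired box factor, had 9914 and 8481 bp with H3K27ac and H3K27me3 peaks of all replicates nearby and an FPKM of 7.38 ± 0.10. The same region holds a TSS of ENSG00000285283. ZFP36L1, a protein that binds AU-rich mRNA, had 8594 and 7525 bp at an FPKM of 112 ± 0.99, and BRD2, a bromodomain reader of acetylated histones, 9010 and 7273 bp at 75.9 ± 2.38. The region of BRD2 also reaches TSS of HLA-DMA, of the antigen processing pathway, so both genes count the same region.

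Not all wide regions lay at genes of high FPKM. HES7, a repressor of the segmentation clock, had 9935 and 7482 bp with an FPKM of 0.21 ± 0.13 and no H3K27ac peak within 1 kb of its TSS in either replicate. BBC3, a pro-apoptotic p53 target, had 7224 and 7309 bp at an FPKM of 6.69 ± 0.65, ZNF503, a zinc finger repressor, 11191 and 7023 bp at 21.0 ± 0.26, and IRS2, an adaptor of insulin signalling, 11601 and 6932 bp at 20.7 ± 0.60. H3K27ac peaks lay at these 3 genes in both replicates and H3K27me3 peaks in neither.

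Single peaks without joining gave another order. The widest of replicate 1, 20334 bp at chr7:27194115-27214448, spanned TSS of HOXA7, HOXA9 and HOXA10, homeobox genes of body patterning, and 7 peaks of replicate 2 covered 63.7% of it. The next, at the TSS of DCBLD2, was 15420 bp wide, and a peak of replicate 2 covered 6.26% of it. The widest of replicate 2, 8992 bp at chr1:228747116-228756107, lay over RNA5S2 to RNA5S5 of the 5S ribosomal RNA gene cluster, which RNA polymerase III transcribes, and replicate 1 covered all of it. A further pair of wide peaks of replicate 1, 15278 and 12958 bp, lay in the same cluster. These copies are nearly identical, and how their reads were placed is uncertain.

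Genes of the H3K4 methylation machinery were marked throughout. All 18 writers (KMT2A to KMT2D, SETD1A, SETD1B and their partners) and all 20 readers and erasers had peaks of both replicates, against 69.6% of protein-coding genes. Each of them also had an FPKM of at least 1. Among all protein-coding genes, 94.7% at an FPKM of 1 to 10 and 99.1% at 10 to 100 had peaks of both replicates. The full marking of these lists is thus near that of expressed genes in general. Among the writers, SETD1B had 6796 and 2869 bp, KDM6A 5453 and 2565 bp, KMT2A 4935 and 3545 bp, and DPY30, a core subunit, 1840 and 871 bp. The list medians were 3005.5 and 2194.5 bp for writers and 3197 and 1861.5 bp for readers and erasers, beside 2383 and 1608 bp over all marked protein-coding genes. All 16 housekeeping genes, each at an FPKM of at least 1, were marked too, with medians of 3591 and 2319.5 bp. ACTB, cytoplasmic actin, had 5242 and 5253 bp, and GAPDH, of glycolysis, 6115 and 5452 bp.

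Of 31 proximal tubule genes, 16 (51.6%) had peaks of both replicates, below the 69.6% of all protein-coding genes, 8 had peaks of 1 replicate and 7 of neither, and 12 of the 16 had an FPKM of at least 1. The transcription factor gene PAX8 had 4765 and 3257 bp at an FPKM of 100.2 and 104 in libraries 1 and 2. The integrin gene ITGA3 had 5813 and 3047 bp, and GLUD1, glutamate dehydrogenase, 4820 and 2625 bp. Solute carriers and receptors of mature tubules went both ways. SLC4A4 had 3953 and 1828 bp at a mean FPKM of 13.4, and SLC5A2 had 1314 and 474 bp at 1.96. Both genes had H3K27ac peaks of both replicates. CUBN, the endocytic receptor cubilin, the organic ion transporters SLC22A2, SLC22A6 and SLC22A8, the phosphate carrier SLC34A3 and the glucose carrier SLC5A1 had no peak in either replicate, and each had an FPKM of at most 0.20 in each library. SLC34A1 and SLC2A2 had peaks of 1323 and 1772 bp in replicate 1 alone, at CpG ratios of 0.26 and 0.14. LRP2 (megalin), PCK1 and HNF4A had 1288, 1421 and 2084 bp in replicate 2 alone, at an FPKM of at most 0.0137 in each library and with an H3K27me3 peak nearby in at least 1 replicate. PCK1 and HNF4A lie on 20q, the arm where replicate 2 had the most peaks per Mb away from a TSS. Among the lists of other cell types in the next paragraph, the podocyte list had a higher share than the 51.6% here, 77.8% of 9 genes. The distal nephron (40%), fibroblast (33.3%), immune (22.2%) and endothelial (12.5%) lists had lower shares. The lists differ in size, and whether the mark tells the labelled cell type apart was not tested.

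Markers of other cell types were marked to unequal extents, to be read against the 69.6% of all protein-coding genes. Of 9 podocyte genes, 7 (77.8%) had peaks of both replicates, a share near that background, among them SYNPO with 4295 and 974 bp at an FPKM of 14.7 and 16.2, and NPHS1 (nephrin) with 1871 and 2388 bp, an FPKM of at most 0.0127 and H3K27me3 peaks in both replicates. WT1 had none. Peaks of both replicates lay at 6 of 15 distal nephron genes, 1 of 8 endothelial genes (ERG), 2 of 9 immune genes (CD14 and CD8A) and 2 of 6 fibroblast genes (COL1A1, at an FPKM of 40.3 and 39.9, and PDGFRA, at 0.044 and 0). All samples were of the HK2 cell line, so a marked gene of a list does not show that cells of that type were present. None of these 15 distal and 8 endothelial genes had an FPKM of 1 in both libraries, and UMOD, AQP2, VWF, TEK, CD3E and PTPRC had no peak in either replicate. In endothelium, CDH5, FLT1, KDR and TIE1 had a peak in replicate 2 alone, so 5 of the 8 genes were marked there.

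Epithelial and mesenchymal genes were both marked, again beside a background of 69.6% of protein-coding genes. Of 11 junction and keratin genes 10 had peaks of both replicates, with KRT8 at 2767 and 2024 bp and EPCAM at 2275 and 1177 bp. CDH1, E-cadherin, had 483 and 2002 bp, an FPKM of 0.21 and 0.28, and H3K27me3 peaks in both replicates. All 6 mesenchymal genes were marked, with CDH2 (N-cadherin) at 5369 and 3249 bp and VIM (vimentin) at 5567 and 2758 bp. All 6 had an FPKM of at least 1, as had 7 of the 10 marked epithelial genes. At an FPKM of 1 to 10, 94.7% of all protein-coding genes had peaks of both replicates. The list medians were 2336 and 2002 bp for the epithelial genes and 4662.5 and 2586 bp for the mesenchymal ones. Of 10 germline and neuronal genes 5 (50%, against 69.6%) had peaks of both replicates, among them SNAP25 with 3332 and 2422 bp at FPKM 2.87 and 2.81. Of a list of 17 genes, most of them named in the text of the study, 14 (82.4%, against 69.6%) had peaks of both replicates, with CCND1 (cyclin D1) at 5355 and 5472 bp, and this list is not independent of these samples.

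Few transcribed protein-coding genes lacked the mark. A peak in neither replicate was seen for 16 of 5732 genes at an FPKM of 10 to 100 and for 1 of 492 above. The highest was MMP1, interstitial collagenase, with an FPKM of 120 and 118, a CpG ratio of 0.16, and an H3K27ac peak in replicate 1 of that mark. CD68, a lysosomal glycoprotein, at 39.6 ± 4.003, and LIF, a cytokine, at 34.5 ± 2.59, had H3K27ac peaks of both replicates within 1 kb of a TSS. GTPBP6, of the pseudoautosomal region, at 34.6 ± 3.58, had none. That region is shared by X and Y and only uniquely mapped reads were used. Whether a peak could be called at GTPBP6 is therefore uncertain.

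Of the 5 marked lncRNA genes of highest FPKM away from protein-coding starts, 3 were small nucleolar RNA host genes. SNHG29 had 2608 and 1945 bp at an FPKM of 274 ± 25.8 (SD, n = 2), SNHG32 4738 and 1835 bp at 95.3 ± 0.71, and SNHG6 3461 and 1600 bp at 71.4 ± 4.72. NORAD, a cytoplasmic RNA that binds Pumilio proteins, had 3564 and 925 bp at 71.9 ± 3.01. ENSG00000269968, at 111 ± 5.65, lies antisense within the GAPDH locus and shares its region of 6115 and 5452 bp, so neither its mark nor its reads can be told apart from those of GAPDH. Of 14 lncRNA genes chosen by name, 12 (85.7%) had peaks of both replicates, against 24.5% of all lncRNA genes and 10.6% of those away from protein-coding TSS, though genes chosen by name are well known ones. NEAT1 and MALAT1, nuclear RNAs, had 9688 and 9902 bp in replicate 1 but 3035 and 821 bp in replicate 2, and HOTAIR and HOTTIP of the HOX clusters had H3K27me3 peaks in both replicates. MEG3 had no peak, and KCNQ1OT1 had 451 bp in replicate 2 alone.

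For genes with a CpG-poor promoter, the class was taken at the canonical TSS and the region at any TSS. A wide region therefore need not lie at the CpG-poor promoter. Of the 5 such genes with the widest regions, HLA-DMA came first with 9010 and 7273 bp, a region it shares with BRD2. No peak of either replicate covered the 200 bases before the canonical TSS of HLA-DMA. AMPD3, AMP deaminase, with 17 annotated TSS, had 6779 and 5794 bp, and ENO3, enolase of muscle, 5486 and 5896 bp. CRACR2B and MXRA8 had 6023 and 5177 bp and 5133 and 5764 bp. At CRACR2B too, the 200 bases before the canonical TSS were not covered in either replicate. H3K27ac peaks lay within 1 kb of a TSS of each of the 5 genes in both replicates.

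Peaks away from a TSS were spread unevenly over chromosome arms, and in replicate 2 far more so. Arms were taken as the sequence on either side of the longest run of undetermined bases of a chromosome, without Y. Over 41 arms with at least 5 Mb of sequence, the density of these peaks ran from 1.32 to 9.44 per Mb in replicate 1 (median, 3.61) and from 2.43 to 114 per Mb in replicate 2 (median, 15.2). In 14 arms, 5q, 8p, 9p, 10p, 11p, 11q, 13q, 15q, 16p, 18p, 18q, 21q, Xp and Xq, the density in replicate 2 was less than 2 times that in replicate 1. In 20q it was 12.0 times, with 9.44 against 114 per Mb, and in 4p 10.5 times. Arms of the same chromosome could differ. The short arm 10p held 3.03 and 4.05 per Mb and the long arm 10q 7.35 and 41.3 per Mb, with GC contents of 41.1% and 41.8%. H3K27me3 peaks showed 4.87 and 2.64 per Mb in 10p and 39.9 and 45.3 per Mb in 10q, and 52.3 and 64.7 per Mb in 20q, whereas H3K27ac peaks had 21.4 and 13.1 per Mb in 10p and 20.5 and 14.9 per Mb in 10q. Other arms went otherwise. H3K27me3 peaks had 14.6 and 9.79 per Mb in 4p, and 5.48 and 4.08 per Mb in 17p, where H3K4me3 replicate 2 had 7.88 times the density of replicate 1. In 20p they had 70.7 and 80.1 per Mb, beside 37.5 per Mb of H3K4me3 replicate 2 peaks away from a TSS. H3K4me3 peaks at a TSS in replicate 2 numbered 4.46 per Mb in 10p and 10.9 in 10q. The part of copy number, of depth and of the other marks in these densities was not tested.

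**Figure D5:**
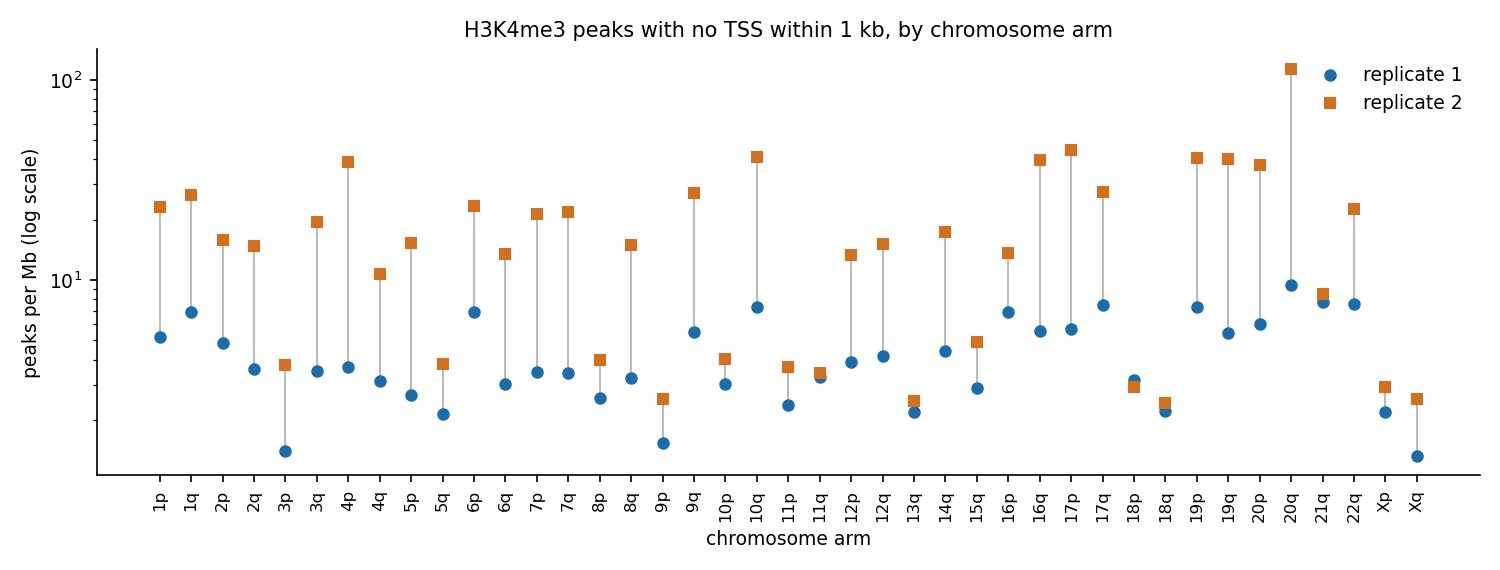
H3K4me3 peaks with no TSS within 1 kb per Mb of determined sequence (log scale) for each of 41 chromosome arms, with a line joining the replicates. Replicate 2 lies far above replicate 1 in most arms, most of all in 20q with 114 against 9.44 per Mb, and the replicates lie close together in 11q, 13q, 18q and 21q.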

How the data were processed

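The deposited H3K4me3, H3K27ac and H3K27me3 files were peak lists with 3 columns, made by the authors with cutadapt, Bowtie2 on hg19 with uniquely mapped reads, and MACS2 on each replicate. They hold no count, and library totals listed in the supplement of the study were not used as values here. Depth is thus unknown from the files, and Wilson intervals (95%) cover counting error only. RNA-seq values were FPKM per transcript as the authors deposited them from StringTie 1.3.3 and GENCODE 27, and TPM values deposited beside them served an alternative. FPKM were summed per gene and joined by Ensembl ID to GENCODE 44 lifted to GRCh37 (64439 genes, 220775 TSS). Peaks were compared by 1 bp of overlap in Python 3.11.15 with numpy 2.4.6, pandas 2.3.3 and scipy 1.17.1, and the interval code was tested on simulated data. Input and HiChIP samples were not used.

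Genes named were those of the gene lists and the 10 widest TSS regions. Also named were 5 genes of highest FPKM without a peak, 5 such marked lncRNA genes, and 5 widest regions over 5 kb from a TSS. The rest were 5 genes with 1 marked start group and 5 of widest region among genes with a CpG-poor canonical promoter. The widest single peaks and the chromosome arms were chosen after their values were seen, and 1 Y-linked gene and some other items are not reported here. Members and lists were chosen with earlier results of these data known. Alternatives for TSS distance, peak width, overlap, annotation, pseudocount and leaving out a replicate were computed.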

Additional observations from a re-analysis of the deposited data

Results flagged for a closer look

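Peaks outside the 24 chromosomes, which no comparison used, numbered 515 in H3K4me3 replicate 1 (1.77% of its list) and 437 in replicate 2 (0.591%). They were singled out because they lie in data outside the main measurement. They fell on 36 and 44 of the 59 other contigs of the assembly, at 84.3 and 71.5 per Mb, against 10.0 and 25.7 per Mb on the chromosomes. H3K27ac peaks had 12.1 and 13.9 per Mb on these contigs, and H3K27me3 peaks 10.8 and 17.5 per Mb.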

How the results depend on the processing

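Over 11 summary values and 60 alternatives, 40 stayed within 1 SD of the replicates, 19 moved further and 1 changed direction. List counts were judged by a limit on the ratio of the counts instead of the SD, and of 70 alternatives 3 moved. That limit is loose, as a change from 6 to 9 marked distal nephron genes did not count as a move. With 2 replicates, each replicate always lies within 1 SD of their mean. For values that were such means, leaving out a replicate therefore could not count as a move. The SD is also wide where the replicates disagree, so staying within it is a weak criterion. No paired analysis was possible because the labels number 1 replicate of each mark and no model was fitted. The share of peaks with a TSS within 1 kb, 47.2%, was 67.3% for peaks of at least 500 bp and 86.9% for overlapping peaks alone (a choice made after seeing the data), and 34.4 to 60.03% for each replicate alone. Its difference from H3K27ac, 8.35 percentage points, became -4.44 without replicate 1 and 21.1 without replicate 2, and that from H3K27me3 ran from 19.1 to 44.7. Protein-coding genes with the mark, 69.6%, were 79.0% with either replicate, 63.1% at the annotated gene start alone and 71.2 to 77.3% by replicate. For lncRNA genes, 24.5%, the values were 36.7% with either replicate, 19.7% with the TSS inside the peak, 10.6% away from protein-coding TSS and 27.7 to 33.4% by replicate. CpG-poor promoters, 16.8%, gave 35.999% with either replicate and 21.9 to 30.9% by replicate. Peaks away from a TSS and outside genes, 42.1%, became 44.1% with a TSS distance of 2 kb, 55.1% with protein-coding genes alone and 55.2% for overlapping peaks, and 40.8 to 43.4% by replicate. The difference in mean log10(FPKM + 1), 0.907, was 1.65 with a pseudocount of 0.1, 0.775 over genes of FPKM 0.1 or more, 1.23 with TPM and 0.794 to 0.889 by H3K4me3 replicate and 0.904 to 0.907 by RNA-seq library. The downstream share, 58.9%, was 64.1% for genes alone and 58.2 to 59.6% by replicate. The width ratio of peaks at a TSS to others, 3.46, ran from 2.34 to 4.59 by replicate. Marked endothelial genes numbered 5 without replicate 1, and fibroblast genes 1 with a TSS within 500 bp or inside the peak. With 2 replicates and no peak heights, weak and strong peaks could not be told apart.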
